A study of Mus musculus with 6 samples.

Results

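The genes that make, desaturate and elongate fatty acids were followed in mouse CD4+ T cells with and without the cancer-associated K700E form of Sf3b1, a core splicing protein. The set holds 10 genes, 3 for synthesis (Acly, Acaca and Fasn), 4 desaturases (Scd1, Scd2, Fads1 and Fads2) and 3 elongases (Elovl1, Elovl5 and Elovl6), taken by symbol from a table of 26469 gene rows. All 10 were among the 18323 genes tested. The set was chosen from the difference between mutant and control cells, in which the desaturases had stood out, so those differences are given here as a description.

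RNA was measured in 6 cultures of splenic CD4+ T cells. The 3 control cultures came from Sf3b1 K700E/fl mice without a recombinase and are annotated WT. The 3 mutant cultures came from Sf3b1 K700E/fl mice that also carried Cd4Cre and are annotated as Sf3b1 mutation. Both groups therefore hold the conditional allele. The recombinase is driven by the Cd4 gene, which switches on in the thymus before CD4+ cells leave it. Naive cells of both groups were cultured for 36 h with TGF-β at 5 ng/ml, antibodies to CD3 and CD28 that activate T cells, and antibodies that block IL-4 and IFNγ, a mixture that drives naive cells towards regulatory T cells. The labels state neither the age of the mice nor whether each sample was a separate animal. A p-value therefore reflects sample-to-sample spread that, among samples of the same sex, could be technical.

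Activated T cells build new membrane and draw on this pathway to do so. Citrate exported from mitochondria is cut to acetyl-CoA, carboxylated to malonyl-CoA and assembled into palmitate, which elongases lengthen and desaturases supply with double bonds. Stearoyl-CoA desaturases make monounsaturated from saturated chains, whereas the Fads enzymes act on the essential polyunsaturated fatty acids of the diet. Much of the pathway is switched on by SREBP transcription factors, which also drive cholesterol synthesis.

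Library totals ran from 33633196 to 43928723 estimated counts, and values are given as CPM, in which each count is scaled by the TMM-adjusted library total. T cell markers summed to 1310 to 2100 CPM in all 6 libraries, against 0.083 to 1.10 CPM for the 4 red cell genes listed in the table and 1.33 to 1.95 CPM for 6 adipocyte and stromal genes, with Adipoq at 0 in 2 libraries. Control 1 was of another sex than the other 5, with Xist at 3475 CPM against at most 0.661 CPM. It thus came from another animal than control 2 and control 3. Mutant 1 stood apart in genes of the naive state, its 10 listed genes summing to 3872 CPM against 2009 to 2248 CPM elsewhere. Mutant 2 had the highest sum of 6 B cell genes, 43.4 CPM, against 9.07 CPM in mutant 3 and 2.16 to 5.66 CPM in the other libraries. The 6 genes of CD8 T cells and NK cells summed to 43.8 CPM in control 1, 23.5 CPM in mutant 2 and 8.23 to 10.7 CPM elsewhere, and 8 myeloid genes to 2.16 to 5.79 CPM. Sf3b1 itself was at 632 to 712 CPM in control against 593 to 649 CPM in mutant libraries, and counts per gene do not tell its alleles apart. The part of these library differences in the results was not tested. In bulk RNA, fewer cells of one kind and less RNA per cell cannot be told apart.

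Before the values, the DNA just before a transcript start of 3 of the genes is shown, because it is a feature that the choice of the set did not use. RefSeq promoter windows of the build GRCm38.p6, from 250 bases before to 50 bases after a transcript start, were at hand for 7 of the 10 genes, with 2 windows for Elovl1. Scd1, Scd2 and Fads1 had no entry. The windows printed are those of Fads2, the only desaturase with an entry (chr19:10101504-10101753, minus strand), Fasn (chr11:120824548-120824797, minus strand) and Elovl5, the gene with the smallest difference between the groups (chr9:77917115-77917364, plus strand). Each runs 5′ to 3′ on the strand of its gene over the 250 bases before that transcript start. The start used for Fads2 lies inside its gene, which reaches to 10101746 in the GENCODE M21 annotation. Most of the printed Fads2 bases are therefore within the annotated gene, not upstream of it. Capitals mark the letters CACGTG (the E-box) and CCAAT (the NF-Y box, ATTGG on the other strand).
Fads2: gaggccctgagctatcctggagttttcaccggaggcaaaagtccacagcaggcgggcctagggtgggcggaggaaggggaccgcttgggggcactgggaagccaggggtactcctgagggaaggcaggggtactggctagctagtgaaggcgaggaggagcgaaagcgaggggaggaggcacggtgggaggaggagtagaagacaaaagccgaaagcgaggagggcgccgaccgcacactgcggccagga
Fasn: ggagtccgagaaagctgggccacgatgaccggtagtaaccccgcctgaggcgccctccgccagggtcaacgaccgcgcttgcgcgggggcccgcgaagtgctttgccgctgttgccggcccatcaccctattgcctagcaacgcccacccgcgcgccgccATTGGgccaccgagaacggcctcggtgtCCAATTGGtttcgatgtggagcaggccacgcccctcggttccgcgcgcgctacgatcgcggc
Elovl5: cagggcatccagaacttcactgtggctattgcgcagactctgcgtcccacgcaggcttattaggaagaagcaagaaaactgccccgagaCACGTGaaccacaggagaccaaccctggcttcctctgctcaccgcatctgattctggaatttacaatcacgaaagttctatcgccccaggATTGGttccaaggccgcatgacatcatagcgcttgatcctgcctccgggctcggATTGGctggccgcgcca

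Both strands of every 300-base window were searched for these letters and for TCACNCCAC, the core of a sterol regulatory element. None of the 8 windows held TCACNCCAC, which 1.24% of all 32851 promoter windows hold. CCAAT was found in the windows of Fasn (3 matches, 2 of which overlap), Elovl5 (2 matches), Acly and 1 of the 2 Elovl1 windows, and in 37.4% of all windows. CACGTG was found in Elovl5 alone of the 7 genes, and in 7.15% of all windows. The Fads2 window, 67.0% G and C, held none of the 3, but it hardly covers the DNA before the annotated gene. The Acaca window and the Elovl1 window without CCAAT also lie inside their annotated genes. These are matches of letters within short windows and mark no binding.

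The 4 desaturase genes had the largest differences of the set, and in each the highest mutant library was lower than the lowest control. Scd1, which makes oleate from stearate, was at 884, 601 and 959 CPM in control 1, 2 and 3 and at 66.7, 399 and 50.6 CPM in mutant 1, 2 and 3. Its level in mutant 2 was thus several times that of the other mutant libraries, and control 2 was the lowest control. The log2 fold change, mutant minus control, was -2.24 ± 0.74 (SE, n = 3 and 3), and the mutant mean was 21.1% of the control mean. Of all genes tested, 0.0546% had a log2 fold change as low or lower, a rank within the contrast from which the set was chosen.

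Scd2, a close relative of Scd1 with the same reaction, was at 2927, 2616 and 3022 CPM in control against 652, 2275 and 960 CPM in mutant libraries. Mutant 2 was again the highest mutant library, and here it came near the lowest control value. The Scd2 log2 fold change came to -1.14 ± 0.41 (SE), and the mutant mean was 45.4% of control. Scd1 and Scd2 are close paralogs, and how reads that match both were counted is not stated, so the split between them is uncertain. As counted, the ratio of Scd1 to Scd2 was 0.302, 0.230 and 0.318 in control and 0.102, 0.176 and 0.0527 in mutant libraries. Scd1 was therefore the lower of the pair in relative terms as well, in every mutant library.

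Fads2, the first desaturase of polyunsaturated fatty acid synthesis, was at 145, 118 and 162 CPM in control against 16.4, 69.1 and 23.1 CPM in mutant libraries. As for Scd1, mutant 2 was far above the other two mutant libraries, which stood in the reverse order. Its log2 fold change was -1.97 ± 0.50 (SE), the mutant mean standing at 25.6% of control. Fads1, which acts after Fads2 in the same route, was at 76.8, 76.3 and 85.3 CPM in control against 35.9, 48.8 and 37.5 CPM in mutant libraries. Fads1 varied least of the 4 within groups, and its log2 fold change of -0.96 ± 0.16 (SE) had the smallest error. Fads2 over Fads1, as a ratio of CPM, was 1.89, 1.54 and 1.90 in control and 0.457, 1.41 and 0.616 in mutant libraries, without overlap.

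**Figure D1:**
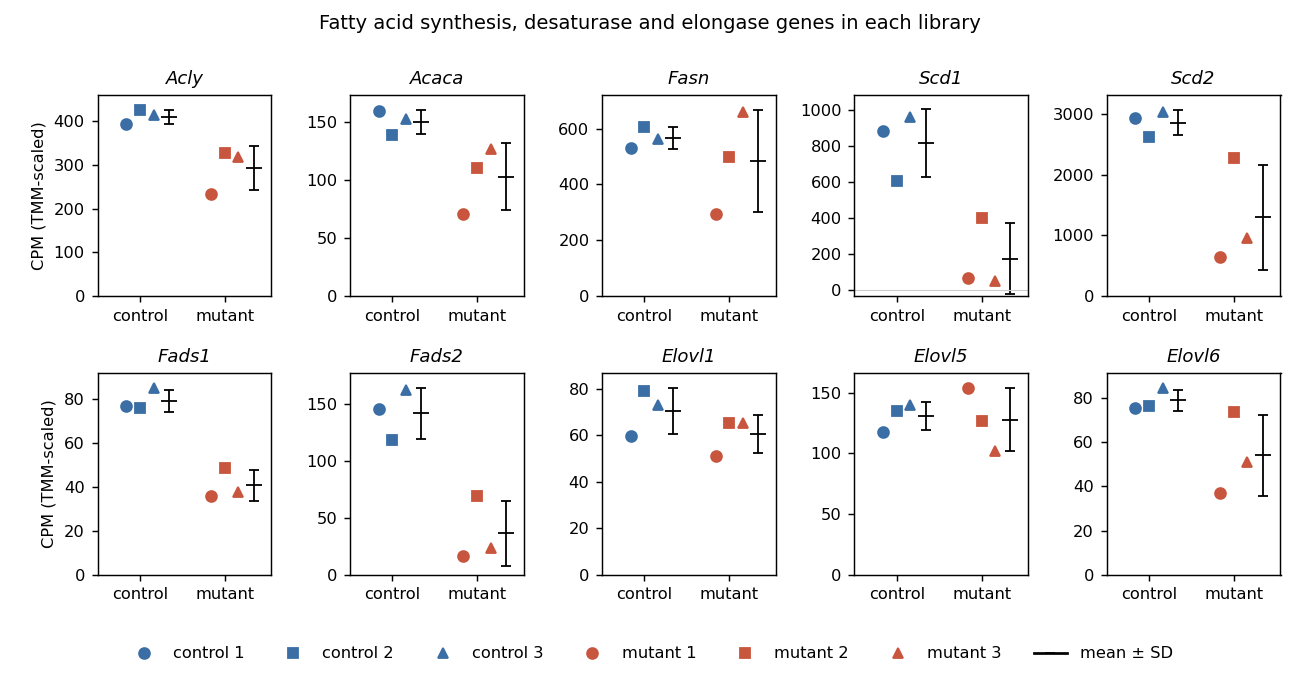
CPM of each of the 10 genes (vertical axes from 0, separate scale per gene; the Scd1 axis runs below 0 to hold its error bar) in the 3 control (blue) and 3 mutant (red) libraries, with the mean ± SD of each group in black. The desaturases lie lower in every mutant library, with mutant 2 (red square) nearest to control, while Fasn, Elovl1 and Elovl5 overlap between the groups.

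Together the 4 desaturases took 4033, 3411 and 4228 CPM in control against 771, 2792 and 1071 CPM in mutant libraries. Relative to the control mean, their mean log2 CPM was -2.49 in mutant 1, -0.76 in mutant 2 and -2.31 in mutant 3, and it lay between -0.21 and 0.16 in control libraries. Mutant 1 and mutant 3 were close on this scale. By single genes, mutant 1 was the lowest of all libraries in Acly, Acaca, Fasn, Scd2, Fads1, Fads2, Elovl1 and Elovl6, and mutant 3 in Scd1 and Elovl5. The naive state genes were raised in mutant 1 (mean 1.42 above control on the log2 scale) and lowered in mutant 3 (-0.33). The mean of the activation and proliferation genes was -0.62 in mutant 1, -0.06 in mutant 2 and -0.03 in mutant 3. Mutant 2, with the highest B cell sum, was nearest to control. Whether the desaturase levels are linked to naive state, activation or B cell content was not tested.

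The genes that make palmitate differed less. Acly, which makes acetyl-CoA from citrate, was at 392, 424 and 412 CPM in control against 234, 327 and 317 CPM in mutant libraries, without overlap. Its log2 fold change was -0.48 ± 0.16 (SE). Acaca, the acetyl-CoA carboxylase that commits carbon to fatty acids, was at 159, 139 and 152 CPM in control against 70.6, 111 and 127 CPM in mutant libraries, also without overlap. The log2 fold change was -0.55 ± 0.22 (SE), and -0.33 without mutant 1.

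Fasn, the synthase itself, overlapped between the groups. It was at 530, 607 and 561 CPM in control against 295, 500 and 660 CPM in mutant libraries, so that mutant 3 held the highest value of all 6 and mutant 1 the lowest. The log2 fold change of -0.22 ± 0.27 (SE) was 0.048 without mutant 1 and -0.51 without mutant 3. Mutant 3 thus combined the highest Fasn with the lowest Scd1. Scd1 over Fasn, as a ratio of CPM, was 1.67, 0.990 and 1.71 in control and 0.226, 0.799 and 0.0766 in mutant libraries. Fads2 over Fasn (0.194 to 0.288 in control, 0.0351 to 0.138 in mutant) and Fads1 over Fasn (0.126 to 0.152 and 0.0569 to 0.122) did not overlap between the groups either. Scd2 over Fasn did overlap, at 4.31 to 5.53 in control and 1.45 to 4.55 in mutant libraries.

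Among the elongases, Elovl6, which lengthens palmitate to stearate, was at 75.8, 76.7 and 84.7 CPM in control against 37.1, 73.8 and 51.2 CPM in mutant libraries. The groups were separated only by the small gap between mutant 2 and control 1. Its log2 fold change was -0.55 ± 0.24 (SE), and -0.33 without mutant 1. Elovl1, an elongase of very long saturated chains, was at 59.8, 79.1 and 72.8 CPM in control against 50.9, 65.4 and 65.4 CPM in mutant libraries, with overlap through control 1 and a log2 fold change of -0.22 ± 0.17 (SE). Its value was -0.098 without mutant 1, -0.13 without control 2 and -0.33 without control 1. Elovl5, which lengthens polyunsaturated chains between the steps of Fads2 and Fads1, was at 118, 135 and 139 CPM in control against 154, 127 and 102 CPM in mutant libraries. It was the only gene of the set whose highest value was in mutant 1, and its log2 fold change of -0.034 ± 0.18 (SE) changed sign when control 3 or mutant 3 was left out and with a stricter count filter.

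**Figure D2:**
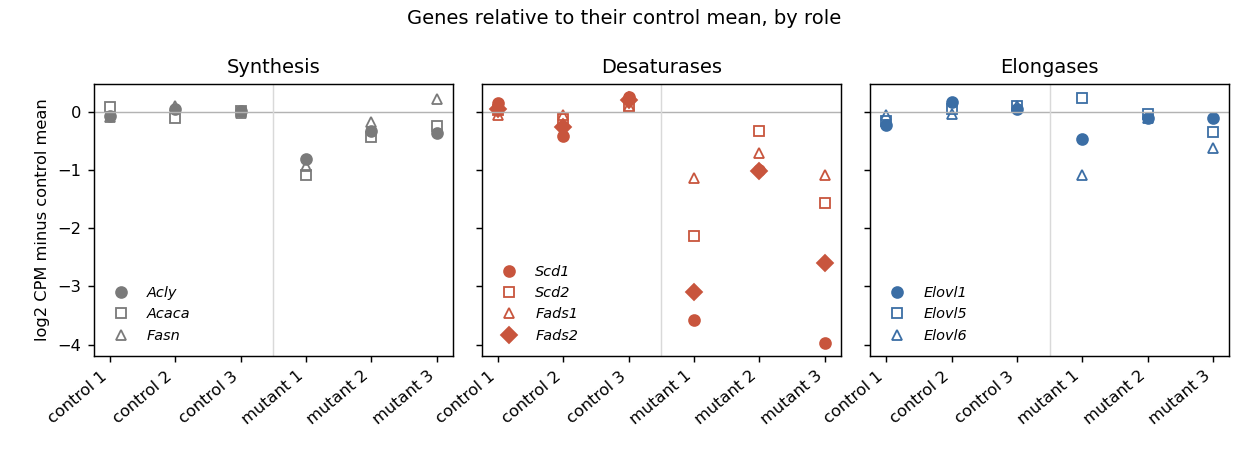
Log2 CPM minus the mean of the control libraries (vertical axis) in each of the 6 libraries (horizontal axis), with 1 panel per role and 1 symbol per gene. In mutant 1 and mutant 3, Scd1 and Fads2 lie between -3.98 and -2.60, and in mutant 2 near -1.

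In all, 10 of 10 genes had a lower mean in mutant cells, as had 47.1% of all genes tested, and in 7 of 10 every mutant library was below every control library, as in 7.48% of all genes. None was higher without overlap (6.6% of all genes). By edgeR's quasi-likelihood test with Benjamini-Hochberg adjustment over all genes, 0 of 10 passed 0.05, and 0 of 18323 genes did (0%). A log2 fold change of -1 or below was found in 3 of 10 (Scd1, Scd2 and Fads2), as in 1.04% of all genes. At an unadjusted p under 0.05, 6 of 10 were lower and 0 higher, against 3.48% of all genes lower, 4.14% higher and 7.62% in either direction. DESeq2 called Fads1 and Fads2 among 100 genes (0.64% of the 15627 with an adjusted p, 0.307% being lower), and limma-voom called none of 18323 (0%). Because the genes were chosen from this same contrast, nothing is read from these counts.

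The median log2 fold change was -1.55 for the desaturases, -0.48 for the synthesis genes and -0.22 for the elongases, beside 0.024 over all genes tested. Leaving out mutant 2 moved Scd1 to -3.78, Scd2 to -1.80 and Fads2 to -2.82, the lowest values these genes took, and leaving out mutant 1 moved Scd2 to -0.81 and Fads2 to -1.61. Fads1 stayed between -1.09 and -0.87 when single libraries were left out. A fit not chosen at the outset set mutant 2 and mutant 3 against control 2 and control 3 alone (n = 2 and 2). It drops the library of another sex and the one with raised naive genes, and keeps mutant 2 with its high B cell sum. Its log2 fold changes were -1.81 ± 1.33 (SE) for Scd1, -0.81 ± 0.41 for Scd2, -1.61 ± 0.62 for Fads2 and -0.91 ± 0.18 for Fads1. With so few libraries, the part of sex or naive state was not tested.

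**Figure D3:**
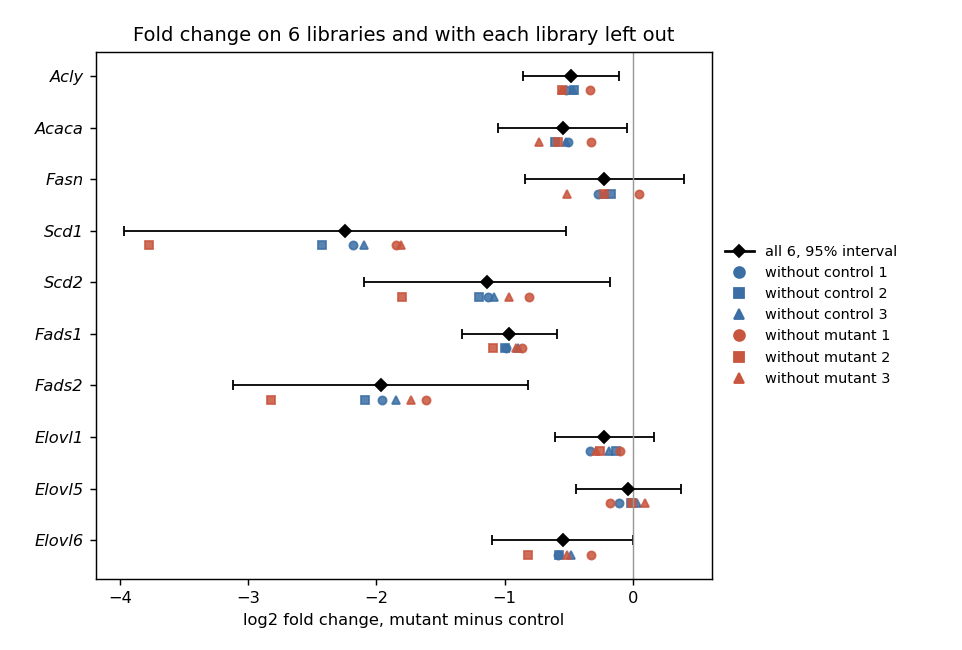
Log2 fold change, mutant minus control (horizontal axis), of each gene on all 6 libraries with its 95% interval (black), and with each library left out (coloured symbols below). The desaturase values stay below -0.8 whichever library is left out, while those of Fasn and Elovl5 lie on both sides of 0.

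The spread within groups also differed between the genes. The highest mutant value of Scd1 was 7.89 times the lowest, against 1.60 times among controls. For Fads2 the corresponding ratios were 4.21 and 1.37, for Scd2 3.49 and 1.16 and for Fasn 2.23 and 1.15. The ratios were 1.36 and 1.12 for Fads1 and 1.29 and 1.32 for Elovl1. On the log2 scale the SD of Fads1 was 0.24 among mutant and 0.090 among control libraries, and that of Elovl1 0.21 in both groups. Of the 9780 genes whose mean log2 CPM reached 3, 99.6% had an SD of log2 CPM among mutant libraries no higher than that of Scd1, 98.0% no higher than Fads2 and 96.6% no higher than Scd2. In control libraries Scd1 was also among the more variable genes (94.1%), whereas Scd2 was not (34.4%). The median SD of these genes was 0.25 among mutant and 0.14 among control libraries.

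Levels between genes were compared as CPM per kilobase of the longest protein-coding transcript in GENCODE M21. In control cells Scd2 stood first at 523 ± 39.0 (SD, n = 3), ahead of Scd1 at 169 ± 39.1, Acly at 92.5 ± 3.67 and Fasn at 56.3 ± 3.88. None of these 4 overlapped its neighbour over the control libraries. Elovl5 (46.98 ± 4.15), Fads2 (45.0 ± 7.07) and Elovl1 (39.0 ± 5.43) followed, and neighbours among these 3 overlapped. Fads1 (23.0 ± 1.46), Acaca (15.8 ± 1.09) and Elovl6 (13.3 ± 0.83) came last, without overlap. In mutant cells Scd2 was still first by its mean, 238 ± 158 CPM per kilobase, while Scd1 was the fifth at 35.6 ± 40.7 and Fads2 the eighth at 11.5 ± 9.10. These are ranks of means over unlike libraries. Scd1 was at 13.8, 82.6 and 10.5 CPM per kilobase in mutant 1, 2 and 3, and was above Acly (73.8) in mutant 2 alone. With the union of all annotated exons as the length, Fads2 changed places with Elovl5, and Acaca with Elovl6, in the control order. The control means of Acaca (8.79) and Elovl1 (25.9) were then lower by more than 1.5 times, and Fads2 was the seventh in mutant cells by its mean.

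**Figure D4:**
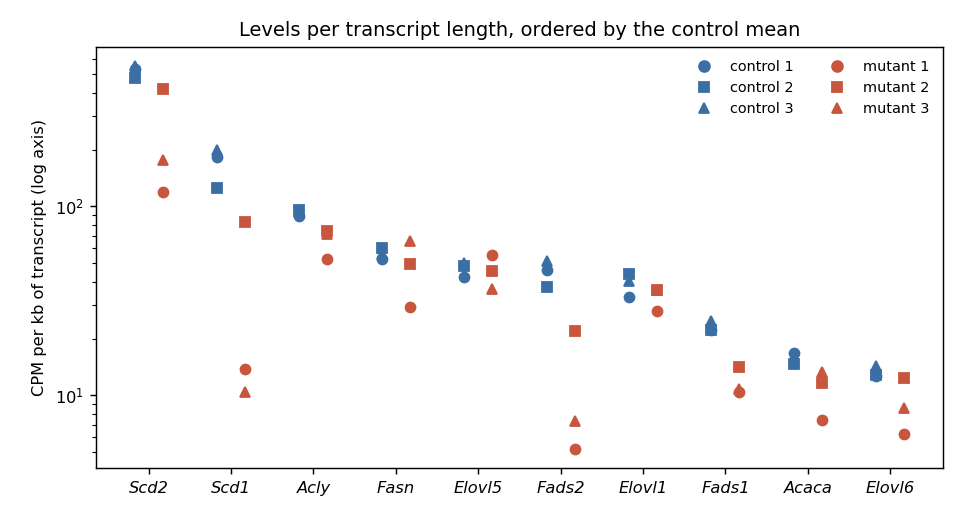
CPM per kilobase of transcript (vertical log axis) of each gene in the 6 libraries, ordered from left to right by the control mean. Scd2 and Scd1 head the order in control (blue), and in mutant 1 and mutant 3 (red circle and triangle) Scd1 lies below Acly, Fasn, Elovl5 and Elovl1.

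Likeness to a desaturase was taken as the root mean square difference of log2 CPM, relative to the control mean, over the 6 libraries, among genes whose mean log2 CPM reached 3. For Scd1 the nearest gene was Fads2 (0.60), followed by Gpt2 (0.66), an alanine aminotransferase gene at 51.7, 11.0 and 39.4 CPM in control against 1.87, 19.0 and 3.31 CPM in mutant libraries, and the small nucleolar RNA gene Snora74a (0.68). Nearest to Scd2 were Snora73b (0.18), another small nucleolar RNA gene, Gm13546 (0.23) and Gm24497 (0.27). Fads1 was matched most closely by Gm19680 (0.13), by Mvd (0.13), an enzyme of the mevalonate pathway at 36.5, 32.6 and 41.6 CPM in control against 18.1, 25.6 and 19.8 CPM in mutant libraries, and by Cnn3 (0.14), a calponin gene. For Fads2 the nearest were Gm13546 (0.56), Scd1 (0.60) and Snora73b (0.63). Within the set the closest pair was Acly and Acaca (0.16), and the farthest Scd1 and Elovl5 (2.20).

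The remaining genes of the pathway were read from lists, and none of their members passed edgeR's test over all genes. Of 18 tested genes for synthesis and elongation outside the set, 14 had a lower mean (47.1% of all genes) and 7 lay below control without overlap (7.48% of all genes; median log2 fold change -0.28). Mid1ip1, a regulator of acetyl-CoA carboxylase, was at 28.9, 29.5 and 31.0 CPM in control against 11.4, 23.3 and 14.2 CPM in mutant libraries. Slc25a1, the carrier that brings citrate out of mitochondria, was at 59.0, 56.0 and 57.9 CPM and at 23.3, 45.8 and 44.0 CPM. Idh1, a cytosolic source of NADPH, was at 15.4 ± 1.25 CPM in control against 9.18 ± 3.47 CPM among mutants (SD, n = 3).

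Of 11 tested genes for other desaturases and their electron donors, 8 had a lower mean and 2 were lower without overlap (7.48% of all genes; median -0.088). Fads3, the neighbour and relative of Fads2, was at 7.55, 2.60 and 6.0 CPM in control against 0.424, 2.10 and 1.28 CPM in mutant libraries. Cyb5r1, of the cytochrome b5 reductase family, was at 56.1, 29.0 and 44.7 CPM and at 17.0, 27.4 and 26.4 CPM. Both genes had mutant 1 as the lowest and mutant 2 as the highest mutant library. Scd3, a minor relative of Scd1, was at 0.863 ± 0.53 CPM in control against 0.412 ± 0.29 CPM among mutants.

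Fads1, Fads2 and Fads3 lie next to each other, as Scd1 to Scd4 do, both groups on chromosome 19. Of the 5 tested neighbours on the Fads side, Fads3 and Fth1 were lower without overlap (7.48% of all genes), at a list median of -0.082. Fen1, next to Fads1, was at 134 ± 24.9 CPM in control against 127 ± 16.7 CPM among mutants, and Tmem258 at 26.3 ± 2.50 and 25.3 ± 1.87 CPM. Myrf, at 0.803 ± 0.079 and 1.32 ± 0.56 CPM, was low in both groups, while Fth1, the ferritin heavy chain, was at 188 ± 6.55 and 164 ± 22.5 CPM. On the Scd side, Chuk was at 99.6 ± 2.7 and 81.7 ± 8.72 CPM. It was the only 1 of 8 tested neighbours lower without overlap, a count too small to read against the 7.48% of all genes. Sec31b was at 0.577 ± 0.059 and 0.984 ± 0.89 CPM, and Scd4 at 0.677 ± 0.27 and 0.653 ± 0.29 CPM. Groups also overlapped for Hif1an (75.6 ± 4.60 and 84.9 ± 10.5 CPM) and Ndufb8 (59.1 ± 7.65 and 54.4 ± 4.79 CPM). The same held for Bloc1s2 (35.7 ± 10.0 and 36.6 ± 7.81 CPM) and Cwf19l1 (33.8 ± 3.12 and 30.8 ± 4.67 CPM). The list median on this side was -0.084.

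Among 17 tested genes that control lipogenic transcription, 9 had a lower and 8 a higher mean (median -0.020). Without overlap, 4 were lower (7.48% of all genes) and 1 was higher (6.6% of all genes), Spring1, at 17.6 ± 0.81 CPM in control against 20.6 ± 1.79 CPM among mutants and named after its values were seen. Srebf1, which encodes the SREBP form most tied to fatty acid synthesis, was at 112, 113 and 115 CPM in control against 68.2, 92.0 and 64.5 CPM in mutant libraries, a log2 fold change of -0.60 ± 0.16 (SE; edgeR adjusted p = 0.598). Mutant 2 was again the highest of the mutant libraries. Insig1, which holds SREBP in the endoplasmic reticulum and is itself an SREBP target, was at 241 ± 32.7 CPM in control against 172 ± 31.4 CPM among mutants. Mbtps2, a protease that releases SREBP, was at 52.4 ± 4.64 and 43.5 ± 4.95 CPM.

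Acyl-CoA synthetase and thioesterase genes numbered 11 tested, of which 6 had a lower mean and 2 were lower without overlap (7.48% of all genes; median -0.29). Acsl3, which activates long-chain fatty acids, was at 59.4, 63.4 and 69.2 CPM in control against 28.5, 40.6 and 38.1 CPM in mutant libraries. Its log2 fold change was -0.84 ± 0.17 (SE; edgeR adjusted p = 0.598). Acsl4, which prefers polyunsaturated chains, was at 272 ± 23.9 and 223 ± 20.5 CPM and Acsf2 at 11.8 ± 3.87 and 7.25 ± 0.61 CPM.

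For phospholipid and triglyceride assembly, 11 of 18 tested genes had a lower mean (47.1% of all genes) and 4 were lower without overlap (7.48% of all genes; median -0.13). Lpcat3, which places polyunsaturated chains into phospholipids, was at 53.8, 48.0 and 56.6 CPM in control against 30.4, 41.5 and 30.6 CPM in mutant libraries. Mboat2, another lysophospholipid acyltransferase, was at 6.13, 1.40 and 3.39 CPM and at 0.650, 1.22 and 0.897 CPM. Its family member Mboat1 was at 25.9 ± 3.35 and 17.6 ± 2.50 CPM. Lpcat3 and Mboat2 shared with Scd1 and Fads2 the position of control 2 as the lowest control and of mutant 2 as the highest mutant library.

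Fatty acid oxidation, the reverse route, had 17 of 24 tested genes with a lower mean (47.1% of all genes) and 7 lower without overlap (7.48% of all genes; median -0.098). The electron transfer flavoprotein genes Etfa and Etfb were at 59.9 ± 4.76 and 37.4 ± 4.71 CPM in control against 47.6 ± 1.66 and 29.5 ± 2.12 CPM among mutants. Decr1, which is needed to oxidise unsaturated chains, was at 20.5 ± 0.68 and 14.8 ± 3.51 CPM. In the uptake and binding list 6 of 11 tested genes had a lower mean and 1 was lower without overlap, near the 7.48% of all genes (median -0.052). That gene was Fabp5, a fatty acid binding protein, at 82.2 ± 15.5 and 49.4 ± 15.0 CPM. Vldlr, a lipoprotein receptor, was at 10.1, 0.639 and 6.31 CPM in control against 0, 1.44 and 0.163 CPM in mutant libraries, and the scavenger receptor gene Cd36 was below 1 CPM in all 6.

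Cholesterol synthesis, which shares SREBP control with the set, had all 17 tested genes with a lower mean (47.1% of all genes) and 12 lower without overlap (7.48% of all genes; median -0.59). Beside Mvd, the genes with the smallest p were Dhcr7, which makes cholesterol from its last precursor, at 92.7 ± 9.02 and 50.5 ± 13.4 CPM, and Nsdhl, a sterol dehydrogenase, at 65.9 ± 10.9 and 38.5 ± 7.23 CPM. On the log2 scale the mean of this list relative to control was -1.14 in mutant 1, -0.32 in mutant 2 and -0.44 in mutant 3. By list means, mutant 3 was thus close to mutant 2 for cholesterol genes and far from it for desaturases. Single genes differed. Nsdhl, at 33.6, 46.8 and 35.1 CPM in mutant 1, 2 and 3, had mutant 3 next to mutant 1, as had Mvd. Dhcr7, at 36.4, 63.2 and 52.0 CPM, did not. Among the desaturases, Fads1 was at -0.70 in mutant 2 and -1.08 in mutant 3, a smaller gap than in the list mean.

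**Figure D5:**
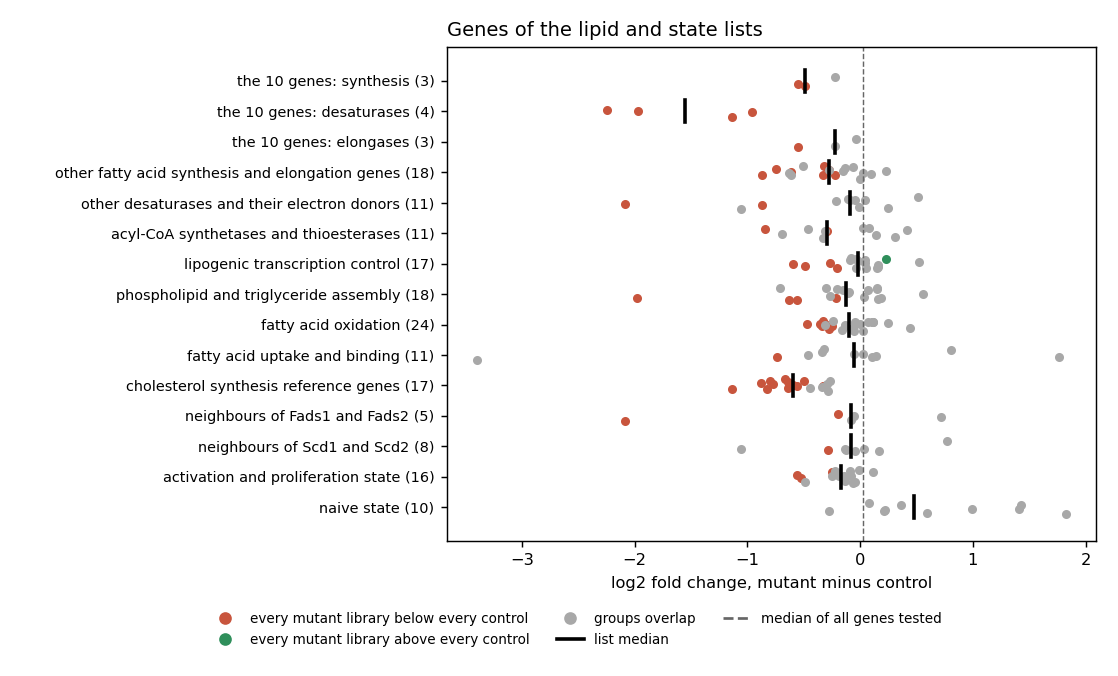
Log2 fold change, mutant minus control (horizontal axis), of every tested gene of each list (rows, number tested in brackets), coloured by whether the libraries of the groups overlap; black bars are list medians and the dashed line the median of all genes tested. The desaturase median lies at -1.55 and that of cholesterol synthesis at -0.59, with the other lipid lists outside the set between -0.29 and -0.020.

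Genes of activation and proliferation were read beside these lists because the pathway is induced on activation. Of 16 tested, 15 had a lower mean (47.1% of all genes) and 3 were lower without overlap (7.48% of all genes; median -0.17), and the list mean relative to control was -0.62 in mutant 1, -0.06 in mutant 2 and -0.03 in mutant 3. Irf4, a transcription factor of T cell receptor signalling, was at 1009 ± 51.0 CPM in control against 683 ± 93.9 CPM among mutants, Tfrc, the transferrin receptor, at 1449 ± 100 and 1004 ± 304 CPM, and Myc at 300.3 ± 13.4 and 253 ± 27.4 CPM. The 10 naive state genes had a median log2 fold change of 0.48, with 9 higher means. None was without overlap in either direction (6.6% of all genes higher, 7.48% lower). Their mean relative to control was 1.42 in mutant 1, 0.11 in mutant 2 and -0.33 in mutant 3. Of the 6 B cell genes, all had a higher mean in mutant cells and 2 were higher without overlap (6.6% of all genes).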

How the data were processed

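Per the labels' protocols, total RNA was depleted of ribosomal RNA and made into libraries. STAR 2.7.8a and Partek are the tools, and GRCm39 (mm39) the build, named by the submitters' processing notes. No label names the annotation, strand setting or counting step, so overlapping and antisense genes cannot be told apart. The authors deposited estimated counts per gene, not normalized, of which 57.8% are whole numbers. They were expected to be whole counts and were rounded to whole numbers.

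Analysis used R 4.3.3. The filterByExpr function (minimum count 10) kept 18323 of 26469 rows, which were normalized by TMM. The quasi-likelihood test of edgeR 4.0.16 compared mutant with control over the 6 samples, with no covariate, two-sided and with Benjamini-Hochberg adjustment, threshold 0.05. Log2 CPM used a prior count of 2. DESeq2 1.42.0 and limma-voom (limma 3.58.1) were alternatives. The tests were tried on simulated data, drawn independently for each library and without the sex, naive state or B cell differences seen here. That trial therefore cannot show how such differences affect the tests. Libraries of the same group differed beyond sampling noise in every pair (chi-square over degrees of freedom 18.7 to 177).

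Members and lists were chosen with earlier results of these data known. Named from each list are up to 3 genes with the smallest p, the listed locus neighbours and the 3 genes most like each desaturase; Fads3 enters as a neighbour too. Sf3b1, Xist and Adipoq were chosen for checks or after their values were seen. Transcript lengths and promoters came from references of GRCm38, whose gene coordinates were not combined with the counts.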

Additional observations from a re-analysis of the deposited data

How the results depend on the processing

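No gene passed in edgeR (1396 at an unadjusted p under 0.05), under other scalings or filters, with limma-voom, or without any 1 library, whereas DESeq2 called 100 genes, 52 higher and 48 lower. With the replicate number as a block 0 genes passed (991 at an unadjusted p under 0.05) and Scd1 was at -2.96 and Fads2 at -2.26 (log2). Without a block, edgeR gave -2.24 and -1.97 for these genes and limma-voom -2.85 and -2.24. Values near the blocked ones were thus also reached without a block. Deviations of same-numbered samples had correlations from -0.13 to 0.044, and those of other pairs from -0.095 to 0.16. With 3 libraries per group, these values cannot show whether the numbers mark a pairing. Directions of 8 of the 10 genes held under all 14 alternatives chosen at the outset. In 7 of these every mutant library was below every control, so leaving out 1 library could hardly turn the direction. The other alternatives refit the same counts, and the genes were chosen from this contrast, so nothing is read from this number. Fasn turned to 0.048 without mutant 1 (range without 1 library -0.51 to 0.048), and Elovl5 (-0.18 to 0.098) to 0.030 without control 3, 0.098 without mutant 3 and 1.05e-05 with a filter of 1 CPM in 3 samples; the cause was not tested. Genes of the set below control without overlap numbered 6 to 8 (6 without Elovl6 under upper quartile scaling and the 1 CPM filter). Without 1 library, which leaves fewer values to overlap, 1539 to 3036 of all genes lay lower and 1919 to 3003 higher without overlap. Depth was not limiting, the lowest count of any member being 581 (Fads2 in mutant 1).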
